A study of Rattus norvegicus with 4 samples.

Results

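The genes described here are 9 neurotrophic factors and receptors, chosen by symbol from the 30708 genes listed for each library: the ligands Bdnf, Ntf3, Gdnf, Artn, Cntf and Lif, and the receptors Ngfr, Ret and Gfra1. Their transcripts were read by RNA-Seq of polyadenylated RNA from S16 cells, an immortalized line of rat Schwann cells, which are the glia of peripheral nerve. The cells were unmodified and untreated, and came from a population at passage 9, the parent of the mutant lines of the study, and a population at passage 39, with 2 technical replicate libraries apiece. The labels call the source a myelinating Schwann cell, but every value rests on 1 cultured line without axons and on 1 population per passage. The passages are therefore compared without a test. The 2 libraries of a passage are technical replicates according to the labels, although they differed well beyond counting error, as given below.

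Neurotrophic factors are secreted proteins that keep neurons alive and guide the growth of their axons. They fall into families that signal through different receptors: the neurotrophins (such as Bdnf, Ntf3 and Ntf4) bind Trk kinases and the shared receptor p75NTR, encoded by Ngfr. The GDNF family (Gdnf, Nrtn, Artn, Pspn) binds a GFRalpha co-receptor anchored to the membrane, which presents the ligand to the kinase RET. The neuropoietic cytokines (Cntf, Lif and relatives) act through gp130, encoded by Il6st, and Cntf and Lif do so together with the LIF receptor. Schwann cells are known as a source of these factors, and after nerve injury they make more Bdnf, Gdnf, Artn and Lif and display p75NTR, whereas Cntf is known as a product of mature myelinating cells.

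Levels are given in RPKM as deposited, which is the number of reads divided by the gene's length in kilobases and by the library's total in units of 1000000. Whole reads were recovered from these values, with totals between 34246093 and 41382234 reads in a library. These totals exceed the reads per cell line stated in the study's methods, and if reads entered the values more than once, the counting intervals are too narrow. The 2 libraries of a passage stood further apart than libraries of the same technical replicate number. The mean chi-square of the reads per gene, which is 1 under counting error alone, was 60.9 and 58.6 between the replicates of passage 9 and of passage 39, but 1.12 between the replicate 1 libraries and 1.32 between the replicate 2 libraries of different passages. Against the labels, the libraries thus paired by replicate number, and each value is given both by passage and by number. If the labels of replicate 2 of passage 9 and replicate 1 of passage 39 had been exchanged, the values by number would be those by passage and the reverse, and this cannot be told apart from the files. The 9 Schwann cell markers checked, among them Sox10 (170.7 to 183 RPKM), were at 1 RPKM or more in every library, with a summed level of 4407 and 4404 RPKM in the replicate 1 libraries and 3568 and 3528 RPKM in the replicate 2 libraries (passage 9 first). Of 8 neuron markers, 2 (Nefl and Tubb3) reached a mean of 1 RPKM and 3 were listed at 0 throughout. Of 6 fibroblast markers, 2 reached it, with Col1a1 at 3344 RPKM or more and Thy1 at 0. Of 6 macrophage markers, 1 (Cd68) reached it, and Ptprc, Emr1 and Itgam were at 0. The summed levels were 136.1 to 165.4 RPKM for neuron, 3349 to 3883 RPKM for fibroblast and 1.48 to 1.62 RPKM for macrophage markers. Their part in the results was not tested.

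The DNA before the start of 4 members is shown here because the results turn on them: Gfra1 differed most between libraries, Ret lay next to 0, Gdnf was the member that differed by passage within both replicate numbers, and the Cntf window had the most matches to the motif searched of any single window of a member. Windows were found for 7 of the 9 members in RefSeq (build GRCr8, a later build than the one the reads were aligned to), and none was found for Ngfr and Lif. Each run holds the 250 bases before the annotated start, 5′ to 3′ on the gene's strand, and capitals mark the SOX10 monomer motifs as the study defines them (ACAAA or its variants ACACA as well as ACAAT and also ACAAG, on either strand, with overlapping matches counted).
Gfra1, chr1:267555812-267556061, strand -: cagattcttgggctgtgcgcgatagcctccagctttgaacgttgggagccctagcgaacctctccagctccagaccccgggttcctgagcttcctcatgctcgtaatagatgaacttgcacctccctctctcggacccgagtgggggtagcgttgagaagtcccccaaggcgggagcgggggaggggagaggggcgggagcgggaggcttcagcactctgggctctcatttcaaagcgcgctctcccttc
Ret, chr4:153040557-153040806, strand -: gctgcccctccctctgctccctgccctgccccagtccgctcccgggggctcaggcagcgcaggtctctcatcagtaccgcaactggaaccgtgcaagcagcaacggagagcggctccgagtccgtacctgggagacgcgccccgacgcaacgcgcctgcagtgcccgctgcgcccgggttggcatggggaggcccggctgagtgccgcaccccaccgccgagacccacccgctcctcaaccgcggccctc
Gdnf, chr2:58621077-58621326, strand +: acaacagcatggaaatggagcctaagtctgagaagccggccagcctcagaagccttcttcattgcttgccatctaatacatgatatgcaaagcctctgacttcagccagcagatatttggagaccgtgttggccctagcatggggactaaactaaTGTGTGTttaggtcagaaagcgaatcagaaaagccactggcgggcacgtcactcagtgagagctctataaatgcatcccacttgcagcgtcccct
Cntf, chr1:219314536-219314785, strand -: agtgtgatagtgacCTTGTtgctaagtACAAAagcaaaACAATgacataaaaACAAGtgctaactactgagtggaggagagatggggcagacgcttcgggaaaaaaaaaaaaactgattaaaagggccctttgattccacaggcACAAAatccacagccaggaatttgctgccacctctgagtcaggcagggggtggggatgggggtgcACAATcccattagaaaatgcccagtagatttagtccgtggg
The windows of Gfra1 and Ret held no such motif. The Gdnf window held 2 overlapping matches and the Cntf window 6, against a median of 2 over all 33469 windows, of which 79.6% held at least 1. The Gdnf window also held TATAAA on the gene's strand 30 bases before the start, a motif that 8.06% of all windows contained. G and C made up 72.8% of the Ret window, 62.0% of that of Gfra1, 49.6% of that of Gdnf and 46.4% of that of Cntf, against a median of 51.2%. Bdnf, a gene known for its many first exons, had 6 windows, and the window at chr3:116637608-116637857 held its only match to the CRE half-site TGACG on either strand, which 18.2% of all windows held. The windows of Gdnf and Artn also held 1 such match each. These matches are descriptions of the letters, and no binding was measured in the files used here.

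Among the 9 members, 6 were at 1 RPKM or more in all 4 libraries, namely Ngfr, Gfra1, Cntf, Bdnf, Lif and Gdnf. Over all listed genes, the same held for 34.9%. Ngfr stood far above the rest at 283 ± 3.68 RPKM (SD over 2 populations), at rank 121 of all 30708 genes. Gfra1 followed at 16.6 ± 0.252 RPKM, and then came Cntf at 3.28 ± 0.167, Bdnf at 2.61 ± 0.0167, Lif at 1.89 ± 0.0526 and Gdnf at 1.88 ± 0.348 RPKM. The libraries of neighbours in this order overlapped from Cntf down to Gdnf, so that no neighbours among these 4 ligands differed beyond the spread between libraries. All Cntf libraries (2.81 RPKM or more) were nevertheless above all libraries of Lif (2.18 RPKM or less) and of Gdnf (2.56 RPKM or less). Artn lay at 0.0731 ± 0.00242 RPKM, Ret at 0.00204 ± 0.00289 RPKM, and Ntf3 was listed at 0. Each population mean averages a replicate 1 and a replicate 2 library, so these SDs leave out the spread between replicate numbers. Over single libraries Gfra1 ranged from 9.94 to 23.2 RPKM and Bdnf from 2.08 to 3.16 RPKM. RPKM values are per gene length, so the levels of different genes can be set side by side.

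**Figure D1:**
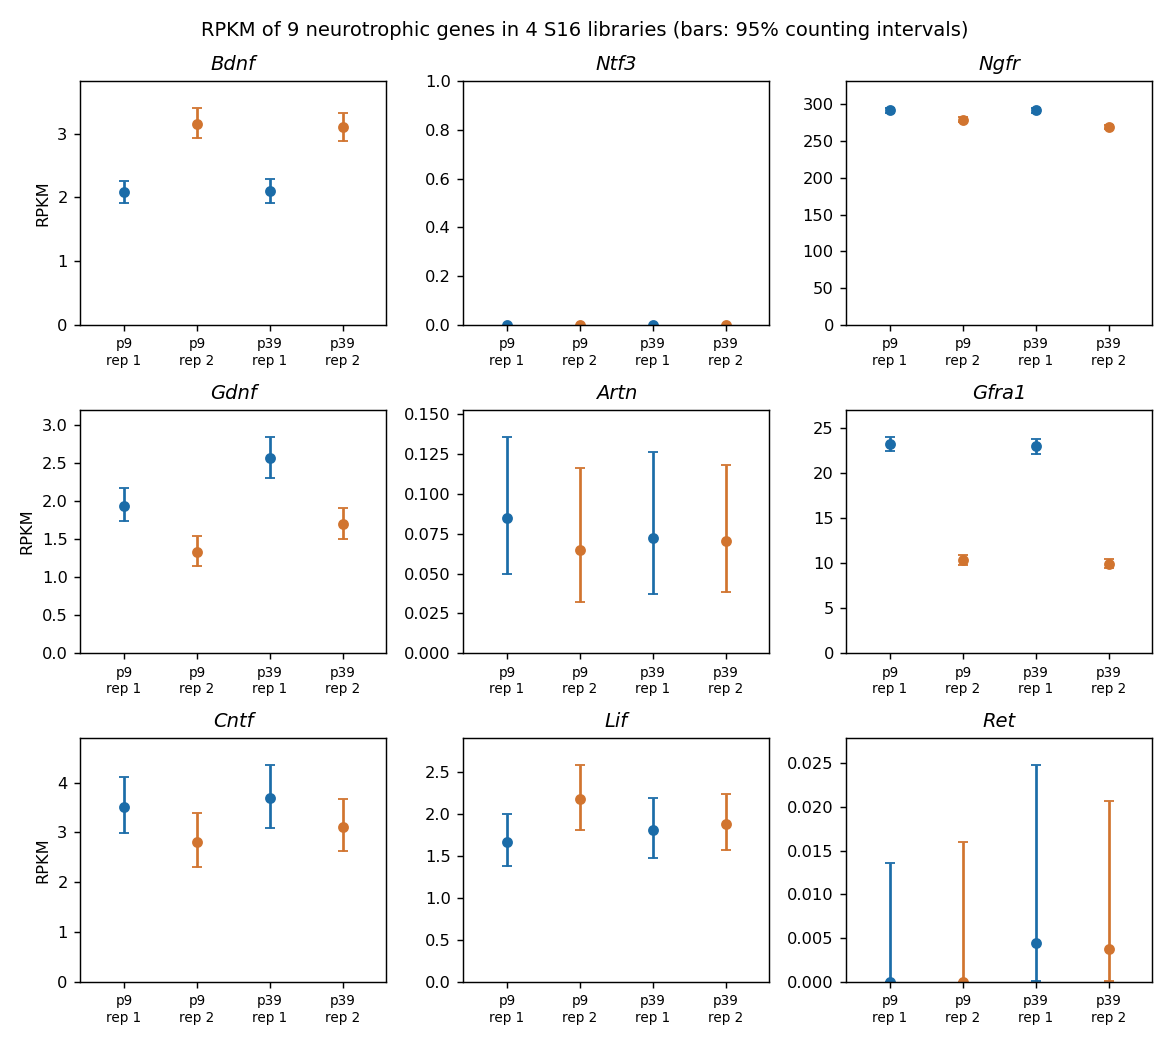
RPKM (y axis, linear, each panel with its own scale) of the 9 members in the 4 libraries (x axis, p9 and p39 for passage, rep for technical replicate); bars are exact 95% counting intervals, and Ntf3 has none because no reads could be recovered. The intervals of the replicate 1 libraries (blue) and the replicate 2 libraries (orange) separate for Bdnf, Ngfr and Gfra1, with Gfra1 at 23.2 and 22.9 RPKM against 10.3 and 9.94 RPKM.

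Of the neurotrophin ligands, Bdnf, a survival factor of sensory and other neurons, was at 2.08 RPKM in replicate 1 (545 reads, 95% interval 1.91 to 2.26) and 3.16 RPKM in replicate 2 (702 reads, 2.93 to 3.40) of passage 9. At passage 39 it was at 2.09 RPKM in replicate 1 (454 reads, 1.91 to 2.30) and 3.10 RPKM in replicate 2 (806 reads, 2.89 to 3.32). Both replicate 2 libraries were thus above both replicate 1 libraries, while the passages overlapped. Ntf3, a neurotrophin known to act on Schwann cells themselves, was listed at 0 in all 4 libraries. That value may not be a measurement, since 2 of 77 ribosomal protein genes, Rps6 and Rplp2, were also listed at 0 in every library. Ntf4, another ligand of p75NTR, was at 0.437 to 0.731 RPKM.

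Of the neurotrophin receptors, Ngfr encodes p75NTR, which binds all neurotrophins and their uncleaved precursors and which is known to mark immature and injury-responding Schwann cells. It was at 291.9 RPKM (39766 reads, 289 to 294.8) and 279.2 RPKM (32258 reads, 276.2 to 282.3) in replicates 1 and 2 of passage 9. At passage 39 it was at 291.9 RPKM (32903 reads, 288.7 to 295) and 268.9 RPKM (36363 reads, 266.1 to 271.6). The 4 libraries spanned a narrow range, although the replicate 2 libraries were the lower ones at both passages. Sort1, which encodes sortilin, a partner of p75NTR in binding the precursors, was at 35.3 to 38.2 RPKM, so that Ngfr was 7.62 to 7.87 times as high per length. Sorcs2, of the same receptor family, was at 23.3 and 10.4 RPKM in the passage 9 libraries, then 22.9 and 10.6 RPKM in those of passage 39. Ntrk3, the Trk kinase that binds Ntf3, was at 2.64 and 0.969 RPKM in the passage 9 libraries, then 2.66 and 1.15 RPKM in those of passage 39. Ngfr was 109.8 to 288.3 times as high. Ntrk2, the Trk kinase that binds Bdnf, had 0 and 9 reads in the passage 9 libraries, then 1 and 15 reads in those of passage 39. It was named after its values were seen, and it stayed at or below 0.0237 RPKM in every library. Of the 7 neurotrophin receptors listed beside Ngfr, 2 (Sort1 and Sorcs2) were at 1 RPKM or more in all libraries, and Sorcs3 was listed at 0.

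In the GDNF family, Gdnf, a survival factor of motor and sensory neurons, was at 1.94 RPKM in replicate 1 (321 reads, 1.73 to 2.17) and 1.33 RPKM in replicate 2 (187 reads, 1.15 to 1.54) of passage 9. At passage 39 it was at 2.56 RPKM in replicate 1 (351 reads, 2.30 to 2.85) and 1.69 RPKM in replicate 2 (278 reads, 1.50 to 1.90). Its replicate 2 libraries were the lower ones at each passage, and its passage 39 library was the higher one within each replicate number. Artn, which encodes artemin, rested on 17, 11, 12 and 14 reads, or 0.0849 and 0.0648 RPKM in the passage 9 libraries, then 0.0724 and 0.0704 RPKM in those of passage 39. Its counting intervals, from 0.0323 to 0.136 RPKM over all libraries, overlapped, and a difference in Artn was not detectable at this depth. Nrtn (neurturin) was at 1.32 to 1.55 RPKM and Pspn (persephin) at 0.821 to 1.45 RPKM.

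Gfra1 encodes GFRalpha1, the preferred co-receptor of Gdnf. It was at 23.2 RPKM in replicate 1 (3465 reads, 22.5 to 24.0) and 10.3 RPKM in replicate 2 (1309 reads, 9.79 to 10.9) of passage 9. At passage 39 it was at 22.9 RPKM in replicate 1 (2830 reads, 22.1 to 23.8) and 9.94 RPKM in replicate 2 (1472 reads, 9.43 to 10.5). The libraries fell into a high and a low pair by replicate number. Ret, the kinase through which Gdnf bound to Gfra1 classically signals, had 0 and 0 reads at passage 9 and 1 and 1 reads at passage 39. A count of 0 was taken to allow 3 reads, or up to 0.0111 and 0.0130 RPKM in the passage 9 libraries. At that allowance, Gfra1 was 2099.6 times as high as Ret in replicate 1 and 793.2 times as high in replicate 2 of passage 9. These 2 ratios leave out the counting error of Gfra1, and the exact 95% upper limits of Ret were higher, at 0.0136 and 0.0160 RPKM. At passage 39, where Ret had a read, the ratio per length was 5144 (exact 95% counting interval 922.6 to 203263) in replicate 1 and 2676 (479.5 to 105760) in replicate 2. Gfra2, the preferred co-receptor of neurturin, was at 69.4 to 71.4 RPKM and lay 2.99 to 7.05 times above Gfra1. Gfra3, the co-receptor of artemin, was at 2.42 and 0.655 RPKM in the passage 9 libraries, then 2.56 and 0.428 RPKM in those of passage 39. Ncam1, a cell adhesion molecule known as an alternative receptor of Gdnf with Gfra1, was at 41.1 to 55.7 RPKM, and Sdc3, a heparan sulfate proteoglycan that also binds Gdnf, was at 31.3 to 34.8 RPKM. Of the remaining co-receptors, Gfra4 was at 0.320 to 0.513 RPKM and Gfral was listed at 0. In these cells Gfra1, Gfra2 and Ncam1 were thus listed at 9.94 RPKM or more, while the kinase Ret had no more than 1 read per library. The reads were counted without strand, and in RefSeq (GRCr8, a later build than the one used for alignment) an uncharacterized lncRNA gene overlaps each of Gfra1 and Gdnf. Reads from both strands may thus have entered these values, which was not tested.

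Of the neuropoietic cytokines, Cntf, a factor for motor neurons that lacks a signal for secretion, was at 3.51 RPKM in replicate 1 (159 reads, 2.99 to 4.10) and 2.81 RPKM in replicate 2 (108 reads, 2.31 to 3.40) of passage 9. At passage 39 it was at 3.68 RPKM in replicate 1 (138 reads, 3.09 to 4.35) and 3.11 RPKM in replicate 2 (140 reads, 2.62 to 3.68). The counting intervals of its 4 libraries overlapped. Lif, a cytokine known to rise in injured nerve, was at 1.67 RPKM (116 reads, 1.38 to 2.00) and 2.18 RPKM (128 reads, 1.81 to 2.59) at passage 9. At passage 39 it was at 1.81 RPKM (104 reads, 1.48 to 2.19) and 1.89 RPKM (130 reads, 1.58 to 2.24), and its intervals also overlapped. The receptor chains of both ligands were listed above 1 RPKM in every library. Il6st, the shared chain gp130, was at 54.0 to 68.3 RPKM, Cntfr, the chain that binds Cntf, at 17.5 to 19.1 RPKM, and Lifr, the chain needed by both, was the lowest at 3.29 to 5.76 RPKM. Of the other ligands, Clcf1, which also acts through Cntfr, was at 3.10 and 8.26 RPKM in the passage 9 libraries, then 3.48 and 8.52 RPKM in those of passage 39. Il6, which signals through gp130 with Il6r, was at 2.61 and 5.97 RPKM in the passage 9 libraries, then 2.82 and 5.22 RPKM in those of passage 39. Osm and its receptor Osmr stayed at or below 0.0521 RPKM.

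**Figure D2:**
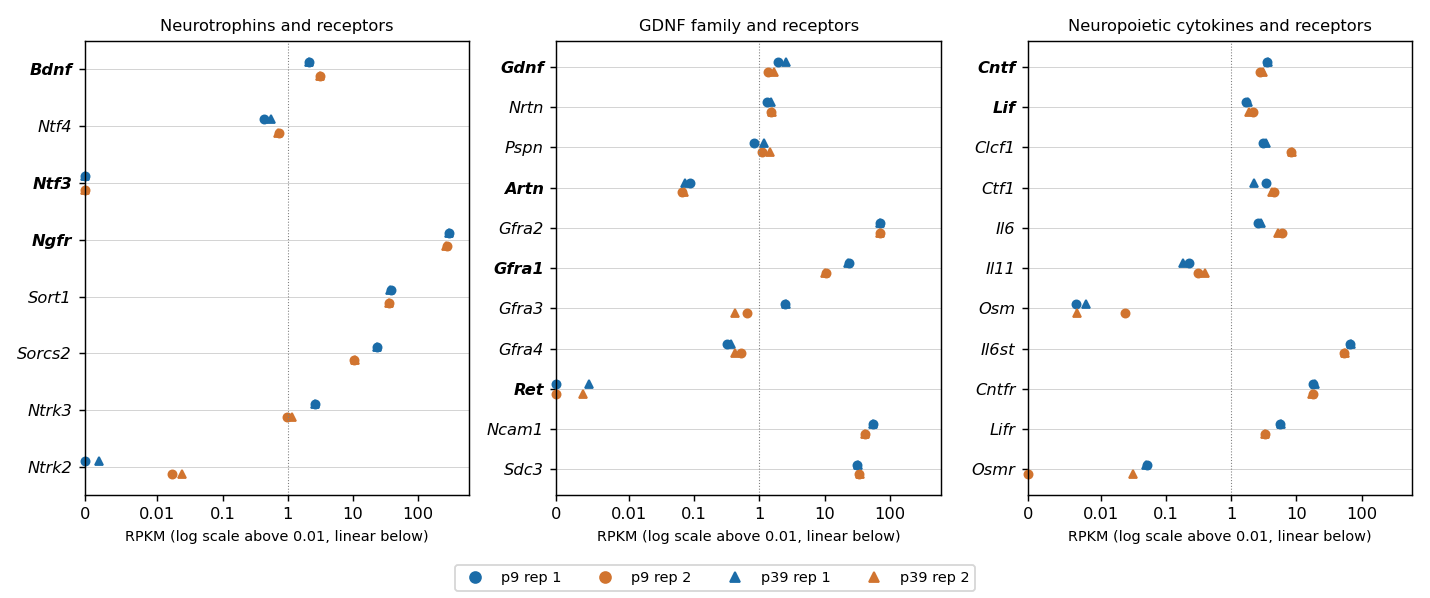
RPKM (x axis, logarithmic above 0.01 and linear below, dotted line at 1) of ligands and receptors of the 3 families in the 4 libraries, with members in bold; circles are passage 9, triangles passage 39, blue replicate 1 and orange replicate 2. Ngfr lies at 268.9 RPKM or more and Gfra1 and Gfra2 at 9.94 RPKM or more, while Ret lies at 0.00445 RPKM or less and Ntf3 at 0.

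The comparison of the passages asked whether the members differed between a young and an old population of the line. On the log2(RPKM + 1) scale, 0 of the 6 members with a mean of at least 1 RPKM differed at least 2-fold, and 0.00907% of the 11025 genes tested did. This scale understates the change of genes near 1 RPKM. The largest difference among the members was that of Gdnf, 0.24 (passage 39 minus passage 9), with 0.28 within replicate 1 and 0.21 within replicate 2. The differences of the other 5 lay between -0.04 and 0.08, and the median of the 6 was -0.02, against 0.00 over all genes tested. The libraries of the passages overlapped for each of these 6 members, whereas they did not overlap for 6.21% of all genes tested.

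The reads gave a finer comparison. The ratio of reads per 1000000 was taken with its exact 95% interval, which covers counting error only and compares these libraries, not the passages as conditions. With the reads of each passage summed, 3 of the 6 members had an interval wholly on one side of 1, as did 13.3% of the genes tested (7.4% above and 5.92% below 1). These were Gdnf, 1.26 times as high at passage 39 (1.12 to 1.42), Gfra1 at a ratio of 0.915 (0.878 to 0.954) and Ngfr at a ratio of 0.976 (0.966 to 0.987). The sums weigh the replicates unequally, since replicate 1 gave 54.1% of the total of passage 9 and 45.5% of that of passage 39. Within the replicate numbers, a comparison chosen after the data were seen, only Gdnf had both intervals on the same side of 1, with ratios of 1.32 (1.13 to 1.54) in replicate 1 and 1.27 (1.05 to 1.54) in replicate 2. Both intervals lay on the same side for 0.436% of the genes tested, and both above 1 for 0.173%. The ratios of Gfra1 were then 0.987 (0.939 to 1.04) and 0.961 (0.891 to 1.04), and those of Ngfr were 1.00 (0.985 to 1.01) and 0.963 (0.949 to 0.977). Bdnf was at 1.01 (0.887 to 1.14) and 0.981 (0.885 to 1.09), with both intervals reaching 1.

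When single libraries were left out of the summed comparison, each remaining set weighed the replicate numbers differently in the 2 passages, and the calls moved. The ratio of Gdnf was 1.08 (0.940 to 1.24) without replicate 2 of passage 9 and 1.02 (0.877 to 1.18) without replicate 1 of passage 39, and both intervals reach 1. Gfra1 turned to higher at passage 39, with a ratio of 1.53 (1.44 to 1.63) without replicate 1 of passage 9 and 1.32 (1.26 to 1.39) without replicate 2 of passage 39. Ngfr turned to 1.02 (1.01 to 1.03) without replicate 2 of passage 39 and was at 1.00 (0.987 to 1.01) without replicate 1 of passage 9. Bdnf, with no call in the sums, was lower at passage 39 without either of those libraries, at 0.836 (0.762 to 0.918) without replicate 1 of passage 9 and 0.813 (0.729 to 0.906) without replicate 2 of passage 39, and higher without either of the others, at 1.27 (1.15 to 1.41) without replicate 2 of passage 9 and 1.20 (1.10 to 1.32) without replicate 1 of passage 39. The direction given for Gfra1, Ngfr and Bdnf by passage thus rests on which libraries are summed.

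**Figure D3:**
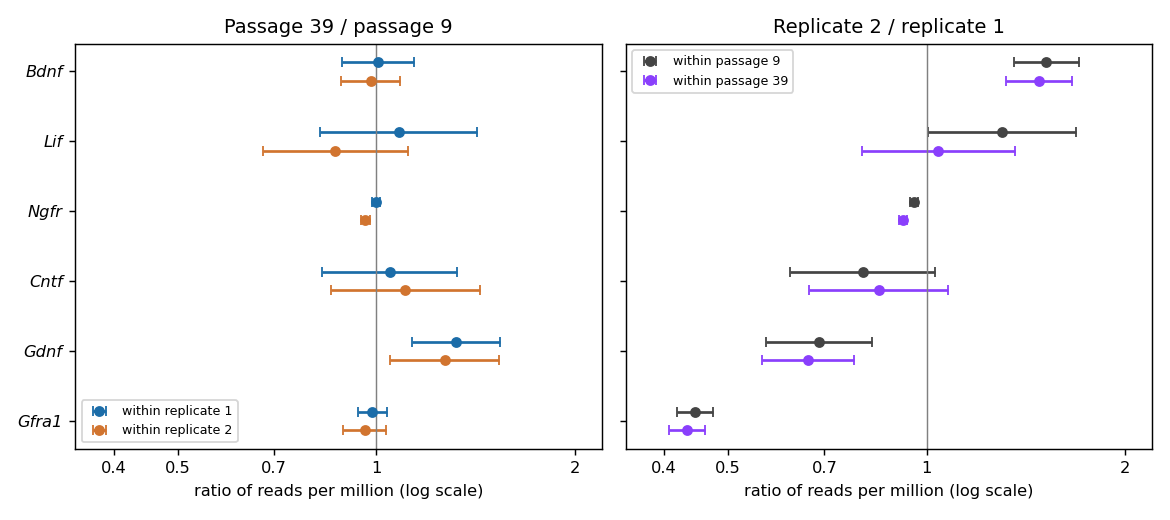
Ratios of reads per 1000000 (x axis, log scale, bars are exact 95% counting intervals) of the 6 members with a mean of at least 1 RPKM, by passage within each replicate number (left) and by replicate number within each passage (right). On the left only the 2 Gdnf intervals both lie off 1, and on the right Gfra1 lies at 0.445 and 0.434 and Bdnf at 1.52 and 1.48.

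The comparison of the replicate numbers, which the labels give as technical, showed larger differences. Gfra1 was lower in the replicate 2 libraries by at least 2-fold, as 1 of the 6 members, whereas 1.1% of all genes tested differed that much in either direction, of which 0.726% were lower and 0.372% higher. Its log2(RPKM + 1) difference was -1.11 (replicate 2 minus replicate 1), with -1.09 at passage 9 and -1.13 at passage 39, and its ratio of reads per 1000000 was 0.439 (0.419 to 0.459). Bdnf was higher in replicate 2, with a ratio of 1.50 (1.38 to 1.63), and Gdnf was lower, with a ratio of 0.687 (0.609 to 0.774). By their reads, the ligand Gdnf and its co-receptor Gfra1 were both lower in the replicate 2 libraries, beside 27% of all genes tested (35.3% with median-ratio totals). Of the other GDNF family genes tested, Gfra3 and Ncam1 were also lower, Sdc3 was higher, and the intervals of Gfra2, Nrtn and Pspn reached 1. Cntf was at a ratio of 0.829 (0.698 to 0.985) and Ngfr at 0.938 (0.928 to 0.947). Lif was at 1.16 (0.969 to 1.40), which reaches 1.

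In all, 5 of the 6 members had an interval off 1 by replicate number, but so had 79.3% of the genes tested, and the libraries of the numbers did not overlap for any of the 6, as for 87.7% of the genes. These shares are near the background and single out none of the members. The intervals were above 1 for 52.3% and below 1 for 27% of the genes as deposited, and with median-ratio totals for 40.2% and 35.3%. All genes together shifted by a median of 0.10 in log2(RPKM + 1) from replicate 1 to replicate 2. Relative to that shift, the difference was -1.22 for Gfra1, -0.47 for Gdnf, -0.32 for Cntf, -0.19 for Ngfr, 0.32 for Bdnf and 0.04 for Lif. Relative to the 500 genes nearest in recovered length, a comparison chosen after the data were seen, it was -1.17 for Gfra1, -0.38 for Gdnf, -0.44 for Cntf, -0.21 for Ngfr and 0.49 for Bdnf, and Lif turned to -0.03. Of the genes similar in length, 1% were as low as Gfra1 or lower, and 97.4% were as low as Bdnf or lower. Within the passages, each taken alone, Bdnf, Gdnf, Ngfr and Gfra1 had intervals on the same side of 1, as did 63.1% of the genes tested. Those of Cntf reached 1 at both passages, at 0.801 (0.621 to 1.03) and 0.846 (0.664 to 1.08). The call for Cntf was also lost without replicate 1 of passage 9, at 0.808 (0.653 to 1.002), without replicate 2 of passage 9, at 0.868 (0.705 to 1.06), and without replicate 1 of passage 39, at 0.847 (0.692 to 1.04). Lif was called higher in replicate 2 only without replicate 2 of passage 39, at 1.25 (1.0004 to 1.57).

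**Figure D4:**
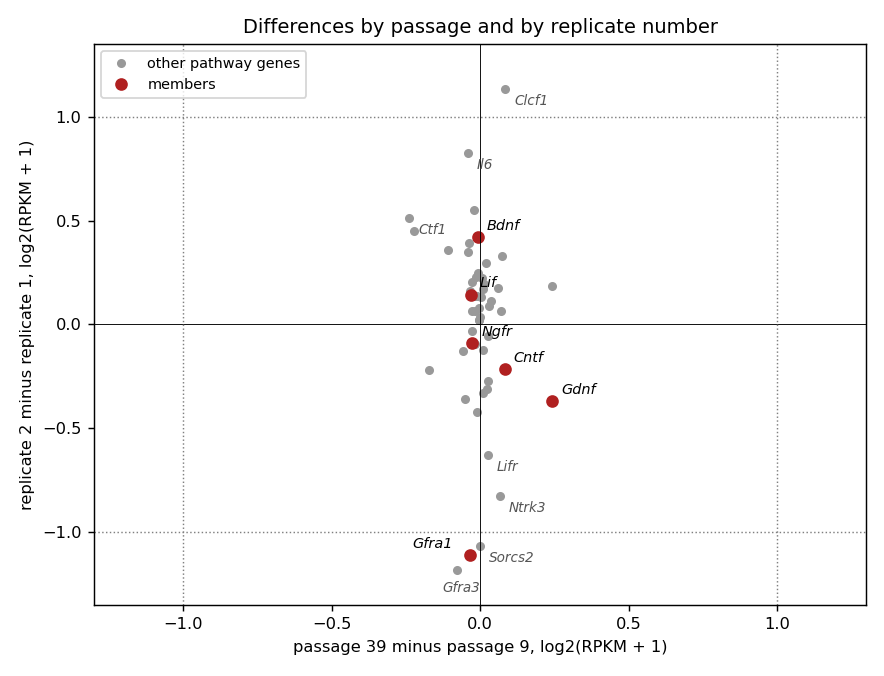
Difference in log2(RPKM + 1) by passage (x axis, passage 39 minus passage 9) and by replicate number (y axis, replicate 2 minus replicate 1) for the 6 members (red) and 46 other pathway genes (grey) with a mean of at least 1 RPKM; dotted lines mark a 2-fold difference. The points spread along the y axis, from -1.18 for Gfra3 to 1.13 for Clcf1, and no point lies beyond the dotted lines by passage.

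The genes around the members were taken from lists of their pathways. Of 70 symbols of ligands, receptors and signalling partners, 68 were listed, 46 had a mean of at least 1 RPKM and 6 were at 0 in every library. Between the passages, 0 of the 46 differed at least 2-fold. Between the replicate numbers, Sorcs2 (-1.07) and Gfra3 (-1.18) were at least 2-fold lower in replicate 2, and Clcf1 (1.13) was at least 2-fold higher, on the log2(RPKM + 1) scale. By the reads, 24 of the 46 were higher and 12 lower in replicate 2, beside 52.3% and 27% of all genes tested, and their median difference was 0.10, equal to that of all genes tested when rounded. The ratio of reads was 0.454 (0.439 to 0.470) for Sorcs2, 0.215 (0.167 to 0.273) for Gfra3 and 2.57 (2.31 to 2.87) for Clcf1. Of the receptors beside the members, 0 were higher and 3 lower in replicate 2 among the 3 tested for neurotrophins, 1 higher and 2 lower among the 4 tested for the GDNF family, and 2 higher and 2 lower among the 5 tested for cytokines. Lower were, for example, Ntrk3 at a ratio of 0.402 (0.344 to 0.470), Lifr at 0.585 (0.552 to 0.621) and Ncam1 at 0.742 (0.732 to 0.753). Higher were Sdc3 at 1.09 (1.06 to 1.11), Il6r at 1.23 (1.12 to 1.34) and Il11ra1 at 1.21 (1.09 to 1.34), while the interval of Gfra2, at 1.01 (0.994 to 1.03), reached 1. Among the cytokines, Il6 was higher, at 2.06 (1.74 to 2.43), in the same direction as Bdnf and Clcf1. Over the same libraries the summed Schwann cell markers went from 4407 to 3568 RPKM at passage 9 and from 4404 to 3528 RPKM at passage 39, and its part in the values above was not tested.

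Most of the listed proteases, receptor partners, adaptors and JAK-STAT genes were at 1 RPKM or more in every library, whereas most of the other trophic factors were not. Of 7 proneurotrophin proteases, which cut or degrade neurotrophin precursors or activate plasmin, 6 were at 1 RPKM or more throughout, led by Plat (tissue plasminogen activator) at 194.1 to 246.2 RPKM, Pcsk6 at 45.2 to 50.1 RPKM and Furin at 12.6 to 13.8 RPKM, and Mmp7 was at 0. Of 7 listed partners of p75NTR, 6 were at 1 RPKM or more, led by Arhgdia, a GDP dissociation inhibitor that binds p75NTR, at 403.3 to 528.6 RPKM, Maged1 at 169.3 to 252.4 RPKM and Ngfrap1 at 37.1 to 49.4 RPKM, and 5 of these 6 were higher in replicate 2 by their reads, beside 52.3% of all genes tested (40.2% with median-ratio totals). Of 9 RET adaptors, 6 reached that level although Ret did not, led by Dok1 at 27.2 to 35.4 RPKM, Shc1 at 14.6 to 16.3 RPKM and Frs2 at 10.3 to 12.9 RPKM, which also serve other receptors, and Grb10 and Dok6 were listed at 0. All 7 genes of the JAK-STAT list, which carries the signal of gp130, were at 1 RPKM or more, among them Stat3 at 57.8 to 64.1 RPKM and Jak1 at 24.9 to 28.3 RPKM. Of 7 other trophic factors, 3 had a mean of at least 1 RPKM, namely Nenf at 52.8 to 57.5 RPKM, Manf at up to 58.5 RPKM and Vgf at 0.741 to 1.40 RPKM, while Hgf was listed at 0.

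Gfra1 had the widest profile of the members over the 4 libraries, with an SD of 0.64 in log2(RPKM + 1). The genes whose centred profile lay nearest to it were Pdzrn3, Fndc1, Lpcat2, Tmprss5 and Nfat5, at Euclidean distances of 0.0241 to 0.0484 over 4 libraries. Pdzrn3, the nearest, was at 50.4 and 22.9 RPKM in the passage 9 libraries, then 49.3 and 22.5 RPKM in those of passage 39. All 5 were lower in both replicate 2 libraries, by a difference between -1.08 and -1.14 in log2(RPKM + 1), and with 4 libraries in 2 pairs any gene with such a fall is close to Gfra1.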

How the data were processed

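The 4 libraries were grouped by the passage in their labels, with the technical replicate number from their titles. According to the paper's methods and the labels, the authors made TruSeq poly(A) libraries, sequenced single ends, checked them with FastQC, aligned them to the rat genome (rn5) with STAR, kept unique reads and used HTSeq to count those in each gene, ignoring strand. Their versions are not given in the sources used here. The authors deposited 1 RPKM value per gene symbol and library. The values come from files named for RefSeq, while the methods name Ensembl.

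Values were processed with Python 3.11.15, numpy 2.4.6, pandas 2.3.3, scipy 1.17.1 and matplotlib 3.10.9. Whole reads, gene lengths and library totals were recovered from the ratios of RPKM values, for 18095 of the 18114 genes above 0 in at least 2 libraries, taking the lowest integers possible, so that a shared factor can stay hidden. The recovery and both call rules were tested on simulated data that held counting error alone. The simulation started from the recovered reads and lengths, and it left out the wider spread between the replicates of a passage. Intervals of levels are exact Clopper-Pearson intervals and those of ratios are exact conditional intervals, both at 95%. Both cover counting error alone, because without molecular identifiers several reads may stem from 1 molecule. Differences used log2(RPKM + 1), averaged over libraries, for the 11025 genes whose mean reached 1 RPKM, and 11005 of these with recovered reads gave ratios. With 1 population per passage no p-values were computed, and the SD is over the 2 population means.

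The members and lists were chosen with earlier results of these data known. Named beside the members were, of each list, the 3 genes of highest mean, genes that differed at least 2-fold, and the 5 genes nearest in profile to the member with the widest profile. Alternatives were other scalings, pseudocounts, minimums, interval levels and libraries left out. Some genes of the lists are not reported here by name.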

Additional observations from a re-analysis of the deposited data

How the results depend on the processing

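The number of members at 1 RPKM or more in all libraries was 6 under both other scalings, with 0.1 RPKM required and without each library, and it was 2 when 5 RPKM was required. By passage 1 gene was at least 2-fold apart, against 2 under a common sum of 1000000, 4 under a pseudocount of 0.1 RPKM, 0 among genes whose mean reached 5 RPKM and 13 to 17 without each library in turn. By replicate number it was 121, with 244 under the common sum, 253 under the smaller pseudocount and 123 to 130 without each library. The members off counting error numbered 3 by passage (3 to 4 without each library) and 5 by replicate number (4 to 6), where Cntf was not called with a 99% interval. The replicate block, which took the passage intervals within each replicate number, left 1 member, Gdnf. No paired analysis was possible because each passage is 1 population and no result came from a test across samples. The log2 differences of Gdnf kept their sign under 8 of 8 alternatives in both comparisons, as did those of Bdnf, Cntf, Ngfr and Gfra1 by replicate number, while by passage those of Bdnf, Cntf, Ngfr and Gfra1 changed sign under 2 of 8 each. Those of Lif changed sign under 1 of 8 in each comparison. The depth sets what can be seen of Artn (54 reads in all) and Ret (2 reads).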
